A study of Anser cygnoides with 18 samples.

Results

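The aminotransferases of the goose were followed through GPT2 and 8 related genes (GOT1, GOT2, TAT, PSAT1, BCAT1, AGXT2, AADAT and ABAT), 9 of the 14628 protein-coding genes in the mRNA table. The genes were found by the symbols of the genome annotation, and all 9 were present. GPT2 had been picked because its mRNA was far higher in high-intake than in control livers. Everything that involves its liver values is therefore described without a test. The other 8 were picked as enzymes of the same kind, but with earlier results of these data known. Shares of members set beside those of all genes are thus descriptions and not a test of the family. The expression values were FPKM (fragment density scaled to transcript length and library size) from RNA sequencing of liver, abdominal adipose (AA) and subcutaneous adipose (SA), with 3 libraries for each tissue and feeding group and 18 in all. The animals were male Tianfu meat geese, 145 days old, kept for a 19-day trial on one and the same diet, which held 14.29 MJ/kg of metabolizable energy and 8.09% crude protein. Control geese (C1 to C3) ate that diet at will, whereas high-intake geese (T1 to T3) were force-fed it, in meals that started at 130 g and grew by 5 g a day. According to the paper, both groups went without feed for the last night and were killed in the morning. The 3 tissues came from the same 6 geese, so C1-L, C1-AA and C1-SA are the liver, AA and SA libraries of one control goose. The line descends from 2 goose species, Anser anser and Anser cygnoides, and its reads were placed on the A. cygnoides genome.

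An aminotransferase moves the amino group of an amino acid onto a keto acid, with pyridoxal phosphate, a form of vitamin B6, as its cofactor. In the liver these reactions collect nitrogen in glutamate and free carbon skeletons for glucose and fat synthesis, and they are readily reversible. GPT2 is the mitochondrial alanine aminotransferase, which interconverts alanine and pyruvate. GOT1 and GOT2 are the cytosolic and the mitochondrial aspartate aminotransferase, which together with malate dehydrogenases and a pair of membrane carriers carry reducing equivalents into mitochondria. Forced overfeeding of geese is a classical way to bring about a fatty liver.

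The summed FPKM of the mRNA table was 387525 to 438339 in livers, 221093 to 394709 in 11 adipose libraries and 107522 in C2-SA, which stood apart, so results in SA are also given without it where it matters. In AA the sums were 221093 to 312874 in controls and 340374 to 354824 in high-intake geese, without overlap, whereas the feeding groups overlapped in liver and SA. The part of that difference in the AA results was not tested. No fragment counts came with the values, and the sequencing depth of a library is therefore unknown. The livers carried most of the 9 hepatocyte markers of the table, with FGB (fibrinogen beta) at 4313 to 12724 FPKM, although ALB (albumin) was listed at 0 in every liver but T2-L, and FGG (fibrinogen gamma) and TF (transferrin) were listed at 0 in T2-L, where a value of 0 can also be a failed estimate. CPS1, the mitochondrial carbamoyl phosphate synthetase, was at no more than 0.13 FPKM in any liver and 0.17 in any adipose library. ADIPOQ (adiponectin) was at 21.8 to 77.4 FPKM in the adipose libraries and at 0.07 to 0.38 in livers. The lowest of these adipose values was that of C2-SA. There 95.5% of mRNAs reached 0.1 FPKM, against 81.2% to 90.3% in the other SA libraries. According to the paper, C2-SA correlated less well with adipose samples in general. Its authors hypothesize partial contamination with tissues such as skin, which was not tested here. Some summed markers of other cells differed between the groups, but the members of a list did not always go together. In livers, the summed level of 5 adipocyte markers was 15.3 to 27.4 FPKM in controls and 40.3 to 46.3 in high-intake geese. That difference came from RBP7 (0.35 to 1.27 against 15.1 to 35.5 FPKM) and not from the list as a whole. PLIN1 was higher as well, at no more than 2.46 FPKM, whereas ADIPOQ, LPL and PPARG overlapped. The sum of 5 endothelial markers was 52.7 to 75.0 FPKM in control livers against 32.3 to 39.1 in high-intake livers. The 6 skeletal muscle markers summed to 9.51 to 91.5 FPKM in control livers and 1.31 to 13.2 in high-intake livers, and the 2 smooth muscle markers to 27.2 to 88.5 against 15.5 to 16.8. The 3 keratinocyte markers summed to 1.25 to 2.66 against 4.05 to 7.43 FPKM. Nearly all of that was DSP (1.23 to 2.59 against 4.00 to 7.35), with PPL and TP63 at no more than 0.11 FPKM in any liver. The 6 leukocyte markers summed to 256 to 373 against 155 to 315 FPKM, which overlapped. Most of that sum was CD74 (197 to 287 against 109 to 254 FPKM), and CD74, LCP1, CSF1R and CD79B each overlapped between the groups. PTPRC (14.0 to 18.2 against 7.01 to 11.1 FPKM) and CD3E (4.77 to 7.59 against 1.66 to 3.94 FPKM) were instead lower without overlap in high-intake livers. The 5 adipocyte markers summed to 3088 to 4342 FPKM in control and 5203 to 5979 in high-intake AA, and to 1009 to 3633 and 4471 to 5296 in SA. In AA, LPL was higher without overlap (283 to 775 against 1194 to 2018 FPKM). PPARG was instead lower without overlap (92.6 to 117.0 against 77.3 to 91.7 FPKM), and ADIPOQ, PLIN1 and RBP7 overlapped. In SA, LPL and PLIN1 were higher without overlap, and ADIPOQ, PPARG and RBP7 overlapped. The part of these markers in the results below was not tested, and in bulk tissue fewer cells of a type cannot be told apart from less RNA per cell.

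GPT2 (gene10994) lies on scaffold NW_013185734.1 at 1742123 to 1756763, on the minus strand, with 10 exons and no gene overlapping it. In control livers it was at 12.3 FPKM in C1-L, 14.3 in C2-L and 20.4 in C3-L. In high-intake livers it reached 605.0 FPKM in T1-L, 326.0 in T2-L and 260.7 in T3-L. All 3 high-intake livers were therefore more than 10-fold above the highest control, and the groups did not overlap. The means were 15.6 and 397 FPKM, a 25.4-fold ratio, and the difference on the log2(FPKM + 1) scale was 4.52. GPT2 was chosen on these livers, so no measure of precision is given for that difference. Ranked by the group mean, GPT2 moved from place 2169 among the mRNAs of control livers to place 176 in high-intake livers.

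In both adipose tissues, GPT2 was far scarcer than in liver. In AA it was at 2.04, 0.75 and 1.17 FPKM in C1-AA, C2-AA and C3-AA, and at 7.74, 3.49 and 3.13 FPKM in T1-AA, T2-AA and T3-AA. The high-intake libraries again lay above every control library, as in liver, at a 3.62-fold ratio of the means, but the difference of 1.27 (SE 0.34) on the log2(FPKM + 1) scale missed the threshold over all genes (limma, adjusted p = 0.135). In SA it was at 0.83, 0.21 and 0.51 FPKM in controls and at 1.69, 0.39 and 2.14 FPKM in the high-intake SA libraries. Here the groups overlapped through T2-SA, and the difference of 0.60 (SE 0.22) also missed the threshold (adjusted p = 0.151), although it passed when C1-SA or T2-SA was left out (lowest adjusted p = 0.0341) and was 0.45 without C2-SA (adjusted p = 0.633). Since these adipose samples came from the same geese as the livers, they are not an independent set of animals.

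Ordered by group mean, GPT2 was highest in high-intake liver, followed by control liver (15.6 FPKM), high-intake AA (4.78 FPKM), high-intake SA (1.40 FPKM), control AA (1.32 FPKM) and control SA (0.52 FPKM). No neighbours among the first 4 groups overlapped in their libraries, whereas the last 3 groups overlapped each with the next. Mean GPT2 was 11.8-fold higher in control liver than in control AA and 30.2-fold higher than in control SA. In the high-intake geese those ratios were 83.0 and 283. The liver difference between feeding groups exceeded that in AA by 3.25 and that in SA by 3.91 on the log2(FPKM + 1) scale. The added 1 shrinks log2 differences at low FPKM, as for GPT2 in adipose tissue, and so widens these gaps. As ratios of the means, high-intake over control was 25.4 in liver, 3.62 in AA and 2.72 in SA.

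**Figure D1:**
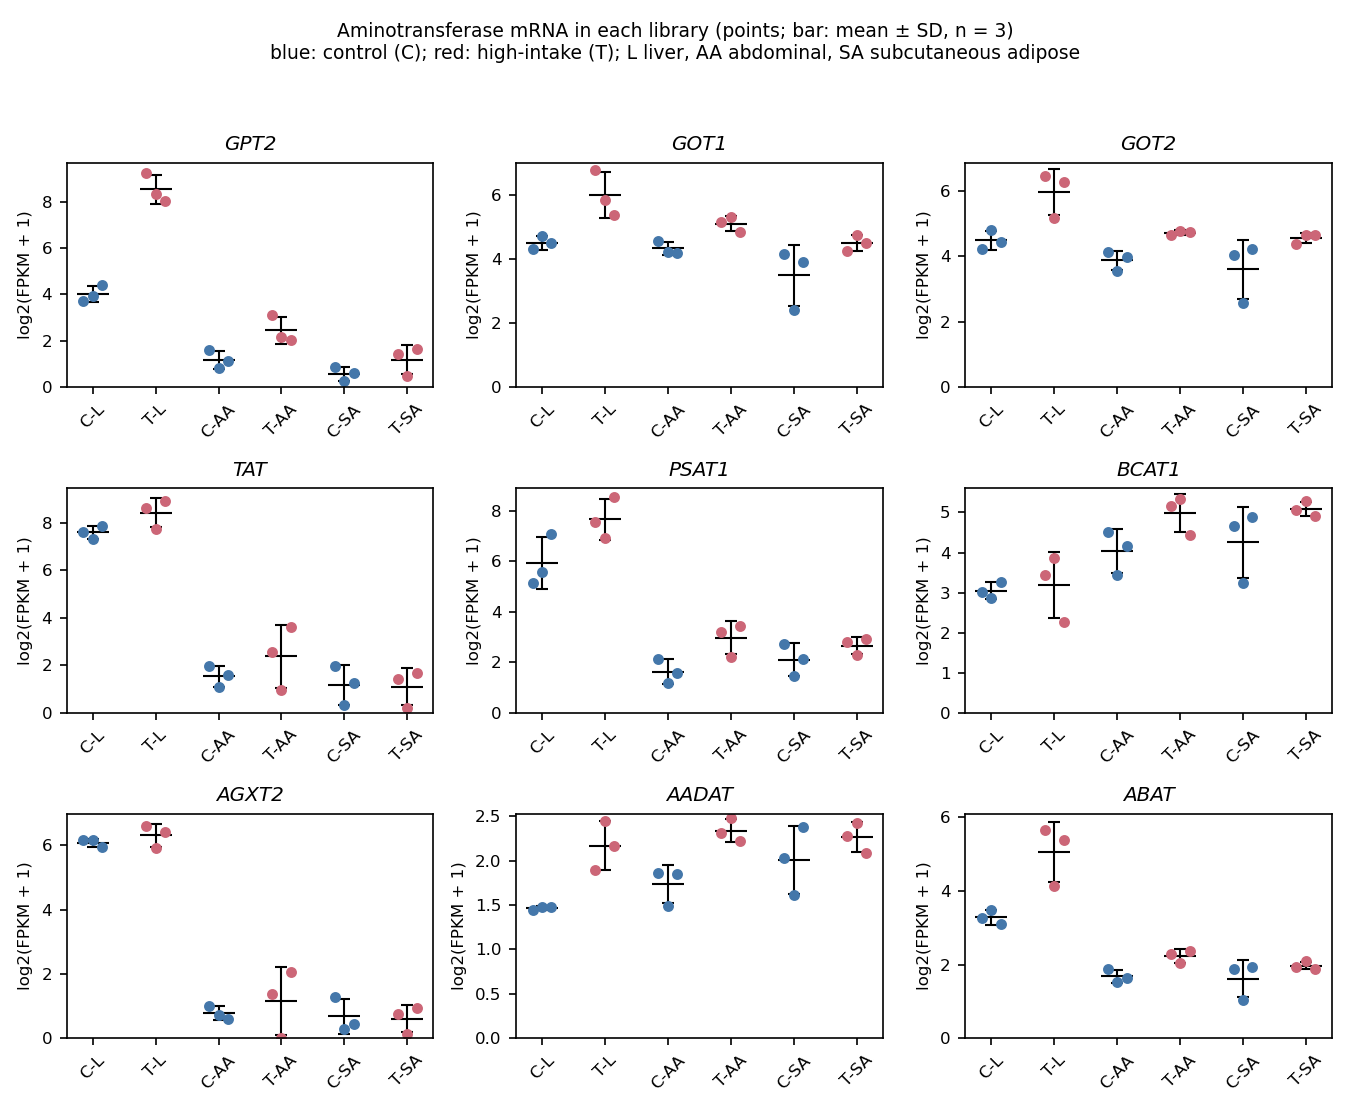
Level of each aminotransferase mRNA as log2(FPKM + 1) in the 18 libraries, by feeding group (C control, T high-intake) and tissue (L liver, AA abdominal, SA subcutaneous adipose), with 1 point a goose and the mean ± SD of 3. GPT2 in high-intake livers, at 261 to 605 FPKM, stands above all its other libraries. The mean of BCAT1 is higher in every adipose group than in liver, although C2-AA and C2-SA lie below T2-L.

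All 8 remaining members had a higher mean in high-intake than in control livers, but no single one passed the test. In liver 2.19% of all genes tested passed at an adjusted p under 0.05 (257 of 11752, but 0 to 238 genes when a liver was left out), and 0 of the 8 members other than GPT2 did (limma, smallest adjusted p = 0.0653). At an unadjusted p under 0.05, 6 of the 8 passed, against 24.1% of all genes. The ratios of the means ranged from 1.19 to 4.03. The median log2 difference of the 8 was 1.15, and that of all genes tested was 0.03, with 52.9% of all genes higher. In 4 of the 8 (GOT1, GOT2, AADAT and ABAT) every high-intake liver exceeded every control liver, a pattern shown by 16.1% of all genes. Without T2-L, GOT2 and ABAT passed (adjusted p = 0.0282 and 0.0186), and without T3-L, GOT1 did (adjusted p = 0.0495).

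In AA only 0.0878% of all genes passed (11 of 12526, but 0 to 245 when a library was left out), and 0 of the 9 members did (limma, smallest adjusted p = 0.112), with 7 of the 9 under an unadjusted p of 0.05 against 20.3% of all genes. All 9 means were higher in high-intake AA, by ratios of 1.67 to 3.62, where 63.2% of all genes were higher. For GPT2, GOT1, GOT2, PSAT1, AADAT and ABAT, 6 of the 9, the feeding groups did not overlap, where 20.1% of all genes showed that pattern. C2-AA, the AA library with the lowest summed FPKM, was the lowest AA library for 6 of the 9 members. The median log2 difference was 0.84 for the members and 0.12 for all genes. In SA 2.13% of all genes passed (283 of 13264, but 4 genes without C2-SA and 1 without the variance trend) and again 0 of the 9 members, and 1 of the 9, GPT2, was under an unadjusted p of 0.05 against 12.8% of all genes. The means of 7 of the 9 members were higher in high-intake SA, beside 69% of all genes, and for 3 of them (GOT1, GOT2 and BCAT1) the groups did not overlap, against 13.1% of all genes. The medians were 0.56 for the members and 0.21 for all genes. Both include C2-SA, the lowest SA library for 7 of the 9 members. It was the lowest of the 3 control SA libraries for all 9 members, so every difference, and with them the member median, was lower without it. The differences of GPT2, GOT1, GOT2, PSAT1, BCAT1, AADAT and ABAT were then smaller, and those of TAT and AGXT2 further below 0. The medians without C2-SA are not given. The fit in SA set the spread of every gene to that of genes of like level, so its p-values take little account of a gene's own scatter.

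**Figure D2:**
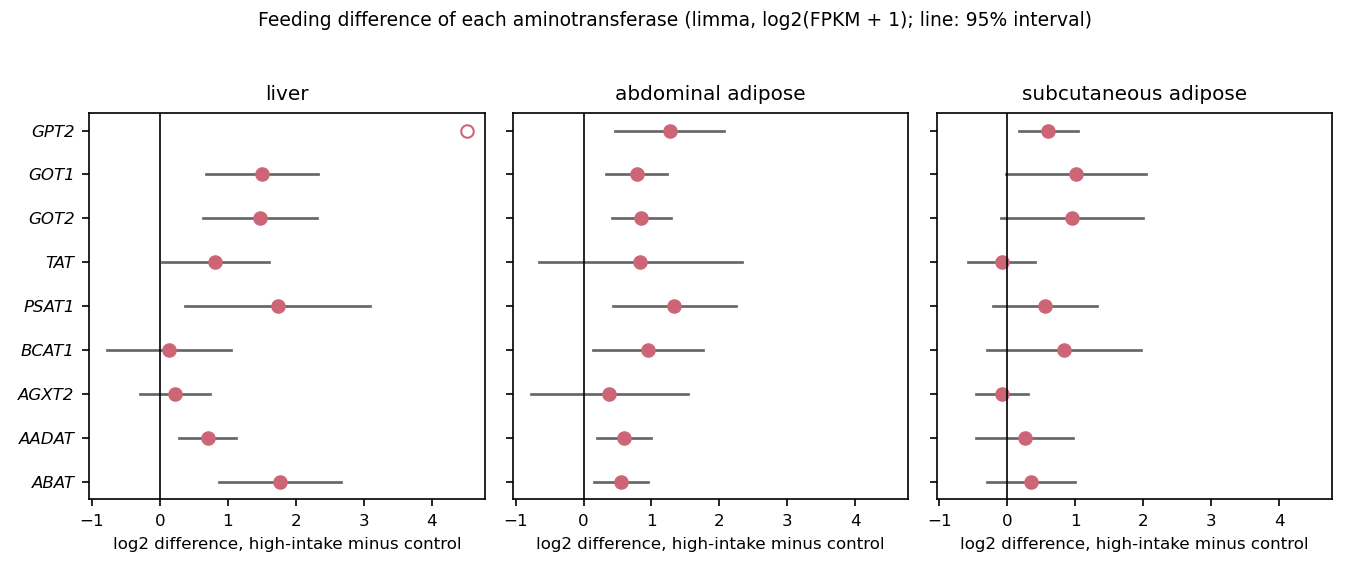
Difference between high-intake and control geese for each aminotransferase in the 3 tissues, on the log2(FPKM + 1) scale, with the 95% interval from limma as a line. The open point is GPT2 in liver, at 4.52, which is a description without an interval because GPT2 was chosen on it, and the intervals of GOT1, GOT2, TAT, PSAT1, AADAT and ABAT in liver lie above 0 before adjustment over all genes.

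The aspartate aminotransferases had much the same levels and differences. GOT1 (gene50, scaffold NW_013185654.1, 1131503 to 1134795, minus strand, 8 exons) was at 18.9, 25.5 and 21.5 FPKM in the control livers and at 110.7, 56.6 and 41.0 FPKM in T1-L, T2-L and T3-L. GOT2 (gene5137, scaffold NW_013185676.1, 549654 to 555924, plus strand, 9 exons) was at 17.4, 26.6 and 20.7 FPKM in control livers and at 86.6, 34.5 and 75.0 FPKM in high-intake livers. Both genes were thus near 22 FPKM on average in control livers (21.97 and 21.6) and about 3-fold higher in high-intake livers, with no overlap between groups. The log2 differences were 1.50 (SE 0.35, adjusted p = 0.0714) for GOT1 and 1.47 (SE 0.36, adjusted p = 0.0748) for GOT2.

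In AA, GOT1 was at 22.7, 17.8 and 17.4 FPKM in controls and at 34.8, 39.2 and 27.9 FPKM in high-intake geese, and GOT2 at 16.3, 10.6 and 14.5 against 24.0, 26.4 and 25.6 FPKM. Neither gene overlapped between groups, and the log2 differences were 0.78 (SE 0.19, adjusted p = 0.121) and 0.85 (SE 0.18, adjusted p = 0.112). In SA, GOT1 was at 17.0, 4.28 and 14.0 FPKM in controls and at 18.0, 26.2 and 21.9 FPKM in high-intake geese, and GOT2 at 15.3, 4.89 and 17.4 against 19.7, 24.1 and 23.8 FPKM. The groups did not overlap here either, but the lowest control values both came from C2-SA, the library with the low FPKM sum. Without it the log2 differences were 0.47 for GOT1 and 0.43 for GOT2, from 1.02 (SE 0.53, adjusted p = 0.401) and 0.95 (SE 0.53, adjusted p = 0.447) with it. The ratio of GOT1 to GOT2 stayed between 1.09 and 1.68 in AA and between 0.80 and 1.11 in SA, and spanned 0.55 to 1.64 in livers, the lowest in T3-L and the highest in T2-L.

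PSAT1 (gene16310, scaffold NW_013185852.1, 308177 to 325757, plus strand, 11 exons) makes phosphoserine on the route from glycolysis to serine. It was at 34.2, 47.1 and 134.8 FPKM in control livers and at 186.4, 120.8 and 369.6 FPKM in T1-L, T2-L and T3-L. C3-L lay above T2-L, so the groups overlapped despite a 3.13-fold ratio of the means (log2 difference 1.73, SE 0.58, adjusted p = 0.132). In AA it was at 3.40, 1.25 and 1.97 FPKM in controls and at 8.27, 3.66 and 9.93 FPKM in high-intake geese, without overlap and at a 3.30-fold ratio (log2 difference 1.34, SE 0.38, adjusted p = 0.143). In SA the values were 5.59, 1.70 and 3.41 against 5.91, 3.83 and 6.54 FPKM, which overlapped (0.56, SE 0.39, adjusted p = 0.557). C2-SA was the lowest of these libraries, and the difference was smaller without it.

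TAT and AADAT act on aromatic amino acids and on lysine. TAT (gene17356, scaffold NW_013185886.1, 1206477 to 1217274, plus strand, up to 12 exons) starts tyrosine breakdown and is a liver enzyme in mammals. It was the most abundant member in control livers, at 195.2, 160.6 and 237.3 FPKM, and was at 395.3, 215.4 and 481.8 FPKM in high-intake livers. T2-L fell within the control range, and the log2 difference was 0.82 (SE 0.34, adjusted p = 0.192). In AA the values were 2.88, 1.09 and 2.01 FPKM in controls and 4.87, 0.95 and 11.1 FPKM in high-intake geese, a wide spread among the latter. In SA they were 2.97, 0.25 and 1.36 against 1.70, 0.16 and 2.15 FPKM, and the log2 difference of -0.08 (SE 0.25) changed sign to 0.33 without C1-SA and to 0.36 without T2-SA.

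AADAT (gene4450, scaffold NW_013185671.1, 9569509 to 9587563, minus strand, up to 14 exons) takes part in the breakdown of lysine and kynurenine. It was the scarcest member in both groups of livers, at 1.71, 1.78 and 1.79 FPKM in controls and at 2.72, 4.44 and 3.48 FPKM in high-intake geese. The control livers were tightly spaced and all lay below the high-intake livers (log2 difference 0.70, SE 0.18, adjusted p = 0.0825). In AA it was at 2.64, 1.81 and 2.62 FPKM in controls and at 3.96, 4.57 and 3.66 FPKM in high-intake geese, also without overlap (0.60, SE 0.17, adjusted p = 0.142). In SA the range was 2.05 to 4.19 FPKM in controls and 3.24 to 4.37 in high-intake geese, which overlapped (0.26, SE 0.37, adjusted p = 0.782), and median centring of the libraries turned that difference to -0.04. Without C2-SA, the lowest SA library for AADAT, the difference was smaller as well.

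BCAT1 (gene16324, scaffold NW_013185853.1, 1069242 to 1135823, minus strand, up to 12 exons) is the cytosolic enzyme that starts the breakdown of leucine, isoleucine and valine, which in mammals takes place mostly outside the liver. It was at 7.10, 6.25 and 8.67 FPKM in control livers and at 9.85, 13.4 and 3.82 FPKM in high-intake livers, so that T3-L was below and T1-L and T2-L above every control. The log2 difference was 0.14 (SE 0.39, adjusted p = 0.857) and became -0.20 without T2-L. In AA it was at 21.7, 9.86 and 16.8 FPKM in controls and at 35.1, 39.2 and 20.8 FPKM in high-intake geese, overlapping through C1-AA and T3-AA (0.95, SE 0.34, adjusted p = 0.194). In SA it was at 24.1, 8.40 and 28.4 against 32.4, 37.9 and 29.3 FPKM, without overlap (0.83, SE 0.58, adjusted p = 0.554), and without C2-SA the difference was 0.32.

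ABAT and AGXT2 are both mitochondrial. ABAT (gene17098, scaffold NW_013185873.1, 639822 to 685658, minus strand, up to 16 exons) degrades the transmitter GABA and, in mammals, beta-alanine. It was at 8.68, 10.2 and 7.51 FPKM in control livers and at 49.0, 16.6 and 40.9 FPKM in T1-L, T2-L and T3-L. The groups did not overlap, the ratio of the means was 4.03, and the log2 difference of 1.77 (SE 0.38) had the smallest adjusted p among the 8 tested members in liver, at 0.0653. In AA it was at 2.70, 1.91 and 2.10 FPKM in controls and at 3.87, 3.09 and 4.21 FPKM in high-intake geese, without overlap (0.55, SE 0.17, adjusted p = 0.156). In SA the ranges of 1.06 to 2.79 and 2.69 to 3.26 FPKM overlapped (0.36, SE 0.33, adjusted p = 0.667), and without C2-SA the difference was 0.07.

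AGXT2 (gene8033, scaffold NW_013185700.1, 4042525 to 4053194, plus strand, 13 exons) is an alanine-glyoxylate aminotransferase, which in mammals also clears asymmetric dimethylarginine. It overlaps DNAJC21 on the opposite strand, and since the strand of the reads is not stated, reads of both genes may not be told apart there. It was at 70.8, 70.1 and 60.4 FPKM in control livers and at 95.4, 59.5 and 84.6 FPKM in high-intake livers. The groups overlapped, and the log2 difference of 0.22 (SE 0.22, adjusted p = 0.558) had a 95% interval from -0.29 to 0.74. In AA it was at 1.02, 0.64 and 0.50 FPKM in controls, and at 1.62 FPKM in T1-AA, listed at 0 in T2-AA and at 3.21 FPKM in T3-AA. In SA it was at 0.22 to 1.44 FPKM in controls and 0.10 to 0.91 FPKM in high-intake geese.

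The make-up of the 9 mRNAs differed between livers of the feeding groups. FPKM is scaled to transcript length, so levels can be set side by side. The 9 summed to 366, 363 and 513 FPKM in control livers and to 1541, 847 and 1361 FPKM in high-intake livers. GPT2 made up 3.35%, 3.94% and 3.97% of the sum in control livers and 39.3%, 38.5% and 19.2% in T1-L, T2-L and T3-L. By group mean TAT led in control liver with 47.8% of the sum, ahead of PSAT1 with 17.4% and AGXT2 with 16.2%, whereas in high-intake liver GPT2 came first with 31.8%, ahead of TAT with 29.1% and PSAT1 with 18.1%. In adipose tissue, where the sums were 23.1 to 124.2 FPKM, BCAT1, GOT1 and GOT2 were the 3 most abundant members in all 4 groups.

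**Figure D3:**
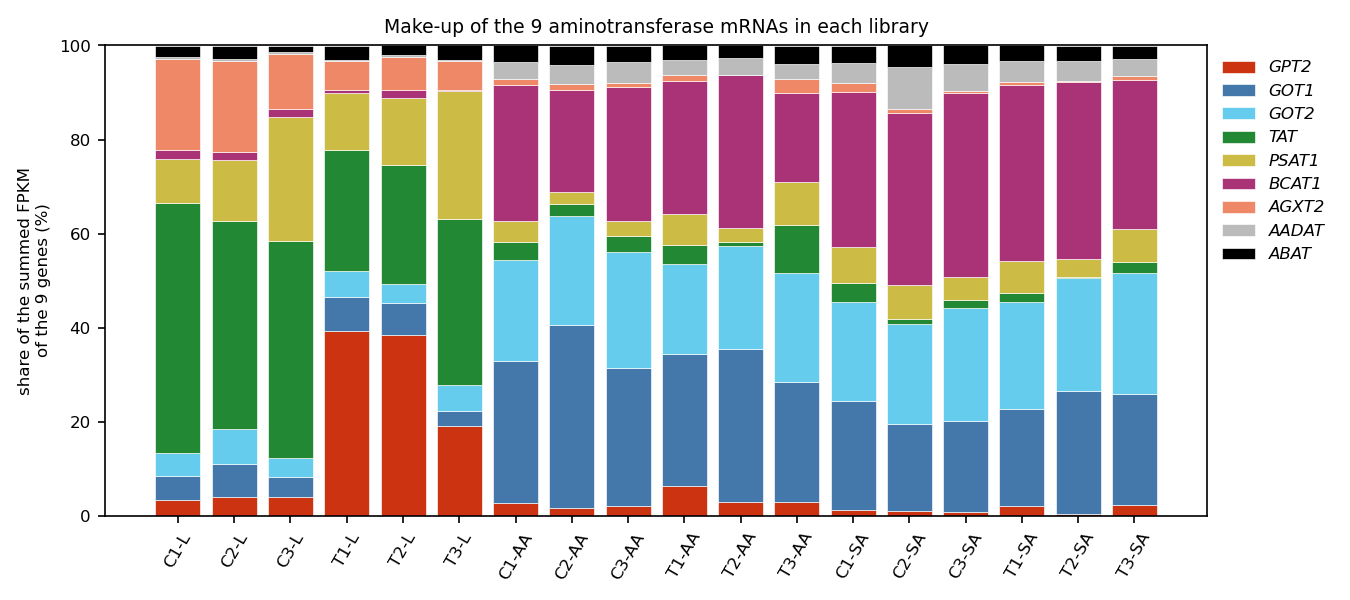
Share of each gene in the summed FPKM of the 9 aminotransferase mRNAs, in percent, for the 18 libraries (C control, T high-intake, L liver, AA abdominal, SA subcutaneous adipose). GPT2 takes 19.2% to 39.3% in high-intake livers against 3.35% to 3.97% in control livers, and BCAT1, GOT1 and GOT2 take most of the sum in adipose tissue.

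Between tissues, TAT, AGXT2, PSAT1 and ABAT were higher in liver in all 4 comparisons, whereas GOT1, GOT2, BCAT1 and AADAT passed in some or none. In control geese, 62.5% of all genes differed between liver and AA (7767 of 12422, with 19.0% higher and 43.5% lower in liver), and 6 of the 8 members other than GPT2 did. TAT, AGXT2, PSAT1, ABAT and GOT2 were higher in liver, and BCAT1 was lower. TAT had a mean of 197.7 FPKM in control liver, 99.1-fold that in control AA, and a log2 difference of 6.08 (SE 0.26, adjusted p = 2.97e-06). AGXT2 followed at 67.1 against 0.72 FPKM, 93.0-fold, with 5.31 (SE 0.17, adjusted p = 1.36e-06). PSAT1 was 32.6-fold higher in liver (4.31, SE 0.49, adjusted p = 2.06e-04) and ABAT 3.94-fold (1.60, SE 0.17, adjusted p = 1.37e-04). GOT2 was 1.56-fold higher (0.61, SE 0.22, adjusted p = 0.0427), a call that was lost with the goose as a block (adjusted p = 0.076) and without C2-L (0.45), C3-L (0.63), C2-AA (0.44) or C3-AA (0.65). BCAT1 was 2.20-fold higher in AA (-0.98, SE 0.28, adjusted p = 0.016), a call that was lost when libraries were centred on their medians (-0.49, adjusted p = 0.134) and, narrowly, without C2-L (-0.89, adjusted p = 0.0558) or C3-AA (-0.92, adjusted p = 0.0522). Centring raised every difference in that comparison by 0.495 and turned the share of higher genes among all called genes from 30.4% to 61.3%. GOT1 differed by 0.18 (SE 0.18, adjusted p = 0.42), which passed after centring (0.67, adjusted p = 0.0097), and AADAT by -0.27 (SE 0.15, adjusted p = 0.138), which became 0.22 after centring.

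Against control SA, where 35.6% of all genes differed (12% higher and 23.5% lower in liver, and 55.4% of the called genes higher after centring against 33.8%), 4 of the 8 members passed, and TAT, AGXT2, PSAT1 and ABAT were all higher in liver by log2 differences of 6.44, 5.41, 3.84 and 1.67. BCAT1 (-1.21, SE 0.50, adjusted p = 0.0649), GOT1 (1.02, SE 0.53) and GOT2 (0.88, SE 0.53) did not pass, but all 3 did after median centring. Without C2-SA, BCAT1 and AADAT passed as well, both lower in liver (-1.72 and -0.74).

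In high-intake geese, liver against AA differed in 55.9% of all genes (14.3% higher and 41.7% lower) and in 6 of the 8 members, with TAT (6.06), AGXT2 (5.16), PSAT1 (4.71), ABAT (2.82) and GOT2 (1.23) higher in liver and BCAT1 (-1.80, SE 0.44, adjusted p = 0.0124) lower. The call of GOT2 was lost without T1-L (0.98), T3-L (1.09), T1-AA (1.20) or T3-AA (1.24). GOT1 differed by 0.90 (SE 0.37, adjusted p = 0.0743) and passed with the goose as a block (adjusted p = 0.0411), without T3-L (1.21, adjusted p = 0.0288) and after centring, where BCAT1 was at an adjusted p of 0.0539. Centring took the share of higher genes among all called genes from 25.5% to 63.5% here and from 27.8% to 61.1% for SA. Against SA, 57.2% of all genes (15.9% higher and 41.3% lower) and 7 of the 8 members differed. TAT (7.33), AGXT2 (5.71), PSAT1 (5.01), ABAT (3.08), GOT1 (1.51) and GOT2 (1.40) were higher in liver, and BCAT1 (-1.90, SE 0.39, adjusted p = 0.00437) was 3.67-fold higher in SA. AADAT passed in neither comparison, at -0.17 (SE 0.19) and -0.09 (SE 0.20), and both values turned positive after centring, to 0.44 and 0.45.

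The low levels of TAT, AGXT2 and PSAT1 in adipose tissue were set beside the hepatocyte markers. In the 12 adipose libraries the 9 hepatocyte markers of the table summed to 118 to 3239 FPKM, against 20310 to 29949 in livers, and none of the 9 was at 0 in any adipose library. These sums are not alike, since ALB was listed at 0 in 5 of 6 livers and TF and FGG in T2-L, while ALB made up 2285 of 3239 FPKM in T3-AA and TF 1633 of 1684 FPKM in T2-AA. T3-AA was the highest adipose library for 7 of the 9 markers, with C1-SA or T1-AA next, but not for TF, which was highest in T2-AA, or CPS1, which was highest in C2-SA. FGB, one of them, was highest in T3-AA (152.9 FPKM), then T1-AA (78.3) and C1-SA (50.6), and lowest in T2-SA (2.98). TAT had the same 3 libraries on top in the same order and the same one at the bottom, and AGXT2 had the same 3 on top. PSAT1 shared the 2 highest libraries, T3-AA and T1-AA. Besides FGB, only FGA and FGG among the markers had T3-AA, T1-AA and C1-SA on top in that order. For AHSG, ALB, APOH and SERPINC1, T3-AA was followed by C1-SA and then C1-AA. T1-AA was in place 4 for AHSG, ALB and APOH, in place 7 for SERPINC1 and in place 10 for TF. GPT2 was highest in T1-AA, next in T2-AA, where FGB was at 11.5 FPKM but TF at its adipose maximum, and then in T3-AA. Each 100 FPKM of FGB stood beside 5.39 to 15.5 FPKM of TAT in adipose libraries and 1.69 to 10.5 FPKM in livers. When T3-AA was left out, the feeding difference in AA went from 0.84 to 0.22 for TAT and from 0.38 to -0.08 for AGXT2, while that of PSAT1 went from 1.34 to 1.09 and that of GPT2 from 1.27 to 1.47. Whether RNA of liver origin contributed to these adipose values was not tested.

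**Figure D4:**
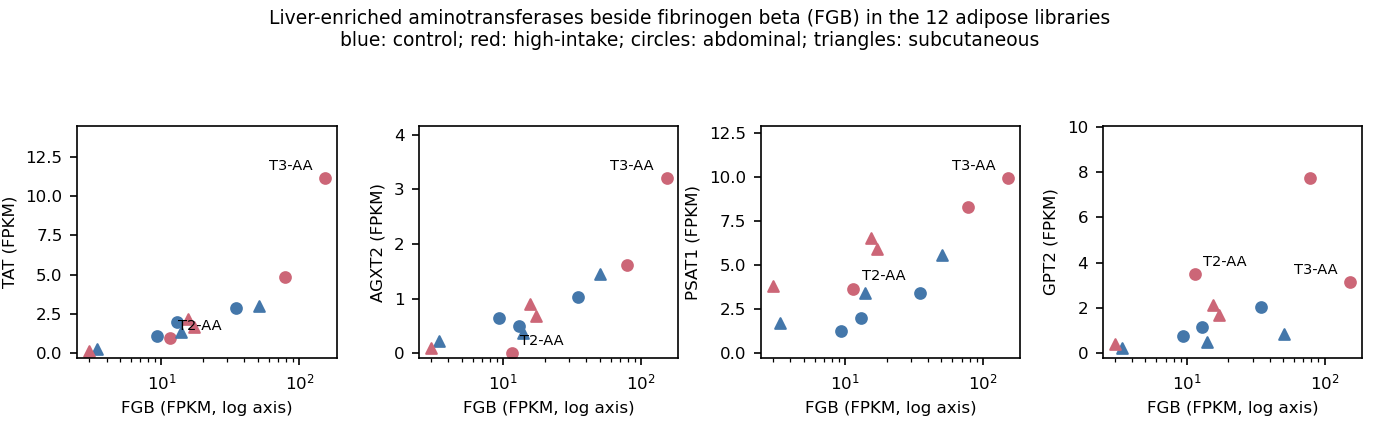
FPKM of TAT, AGXT2, PSAT1 and GPT2 (vertical axes) against FPKM of the secreted liver protein FGB (horizontal log axis) in the 12 adipose libraries, circles for AA and triangles for SA, blue for control and red for high-intake. TAT and AGXT2 are highest in T3-AA, where FGB is 152.9 FPKM, whereas GPT2 is highest in T1-AA at 7.74 FPKM.

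Whether liver and adipose tissue responded differently to feeding was tested for each gene as the difference of both responses within geese. For liver minus AA 0.0723% of all genes passed, and for liver minus SA 1.72%, and 0 of the 8 members other than GPT2 passed in either (limma, with the goose as a block). At an unadjusted p under 0.05 there were 2 of the 8 for AA, BCAT1 and ABAT, and 1 for SA, ABAT, against 14.0% and 11.0% of all genes. ABAT had the largest positive values of the 8, at 1.23 (SE 0.35, adjusted p = 0.214) over AA and 1.42 (SE 0.52, adjusted p = 0.223) over SA. BCAT1 had the most negative, at -0.81 (SE 0.31, adjusted p = 0.302) and -0.70 (SE 0.56, adjusted p = 0.734). For GOT1 the differences were 0.72 (95% interval -0.14 to 1.59) and 0.49 (-0.86 to 1.83), and for GOT2 0.63 (-0.42 to 1.67) and 0.52 (-0.81 to 1.86), so a larger or an equal response in liver both lie within the intervals.

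A list of other aminotransferases and related enzymes held 8 genes of the table (AGXT, OAT, CCBL1, CCBL2, ETNPPL, PHYKPL, GFPT1 and GFPT2). Of these, AGXT rose in high-intake liver, where 1.27% of all genes rose, and the remaining 7 did not pass. AGXT, the alanine-glyoxylate aminotransferase that removes glyoxylate, was at 4.91, 6.25 and 6.40 FPKM in control livers and at 20.9, 14.0 and 17.8 FPKM in high-intake livers (log2 difference 1.43, SE 0.20, adjusted p = 0.0291). Of the fits that left out a liver, that call held only in those without T2-L or T3-L. ETNPPL, which degrades phosphoethanolamine, was at 27.8, 19.5 and 30.6 FPKM in control livers and at 182.1, 68.4 and 276.6 FPKM in high-intake livers. Its groups did not overlap, and at 2.52 (SE 0.49) its adjusted p was 0.0502. In SA, ETNPPL was instead at 30.5, 6.42 and 23.4 FPKM in controls and at 13.1, 10.5 and 11.9 FPKM in high-intake geese, and the response of liver exceeded that of SA by 3.00 (SE 0.65, adjusted p = 0.0116). That call was lost without goose C2 (3.45, adjusted p = 0.105) or T3 (2.57, adjusted p = 0.073). Between tissues GFPT2, an enzyme of hexosamine synthesis, was much lower in liver, at 0.60 FPKM in control liver, 11.6 in control AA (-2.87, adjusted p = 4.30e-04) and 65.2 in control SA (-4.98, adjusted p = 5.17e-07), while AGXT, CCBL1 and CCBL2 were higher in liver in all 4 comparisons. The call of CCBL2 against control SA was lost without any 1 of the 3 control livers (1.39 to 1.56, highest adjusted p = 0.0832).

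The genes that feed or drain the aminotransferase reactions were taken from 9 lists, with 76 genes tested in liver. The list of other aminotransferases and related enzymes was included. Of these, 4 rose in high-intake liver, where 1.27% of all genes rose and 0.919% fell. The median log2 difference over the 76 was 0.43, and 59 of them were positive, where 52.9% of all genes were. In branched-chain amino acid breakdown, 2 of 14 rose. IVD, isovaleryl-CoA dehydrogenase of the leucine route, was at 1.86, 2.10 and 2.24 FPKM in control livers and at 7.14, 7.18 and 5.24 FPKM in high-intake livers (1.29, SE 0.17, adjusted p = 0.029). HIBADH, of the valine route, was at 11.1, 12.7 and 13.1 against 25.8, 21.9 and 25.9 FPKM (0.94, SE 0.16, adjusted p = 0.0428). Both genes had high-intake livers well clear of the controls.

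In tryptophan and lysine breakdown, 1 of 10 rose. It was AASS, the first enzyme of lysine breakdown, at 9.83, 13.7 and 15.1 FPKM in control livers and 53.7, 34.9 and 28.7 FPKM in high-intake livers (1.51, SE 0.27, adjusted p = 0.0452). These 4 calls were lost in at least 4 of the 6 fits that left out a liver (highest adjusted p = 0.147). AGXT and IVD passed without T2-L or T3-L, HIBADH without T2-L, and AASS without T3-L.

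No gene analysed in the other lists passed the threshold in liver. In the malate-aspartate shuttle and pyruvate list (12 genes, median 0.66) ME1, malic enzyme, was at 15.1, 30.5 and 11.3 FPKM in controls and at 112.7, 57.0 and 256.9 FPKM in high-intake livers (2.70, SE 0.57, adjusted p = 0.0621). In glutamate and ammonia handling (9 genes, median 0.44) ASL, argininosuccinate lyase, was at 4.51, 1.79 and 2.65 against 7.85, 9.45 and 13.0 FPKM (1.51, SE 0.29, adjusted p = 0.0504). In tyrosine breakdown (7 genes, median -0.03) HPD, the enzyme that follows TAT, was at 160.6, 190.2 and 204.6 FPKM in controls and at 89.6, 73.7 and 41.7 FPKM in high-intake livers (-1.49, SE 0.30, adjusted p = 0.0555). HPD thus had lower and TAT higher means in the same livers, neither past the threshold. In the GABA and beta-alanine list (7 genes, median 0.46) DPYS, dihydropyrimidinase of uracil breakdown, was at 183.5, 200.4 and 142.7 FPKM in controls and at 33.3, 50.0 and 97.5 FPKM in high-intake livers (-1.65, SE 0.38, adjusted p = 0.0708). In serine synthesis and use (5 genes, median 0.11) the largest difference was that of SHMT1 (1.23, adjusted p = 0.175), and in the cofactor list (4 genes, median 0.04) that of PROSC (0.19, adjusted p = 0.452).

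**Figure D5:**
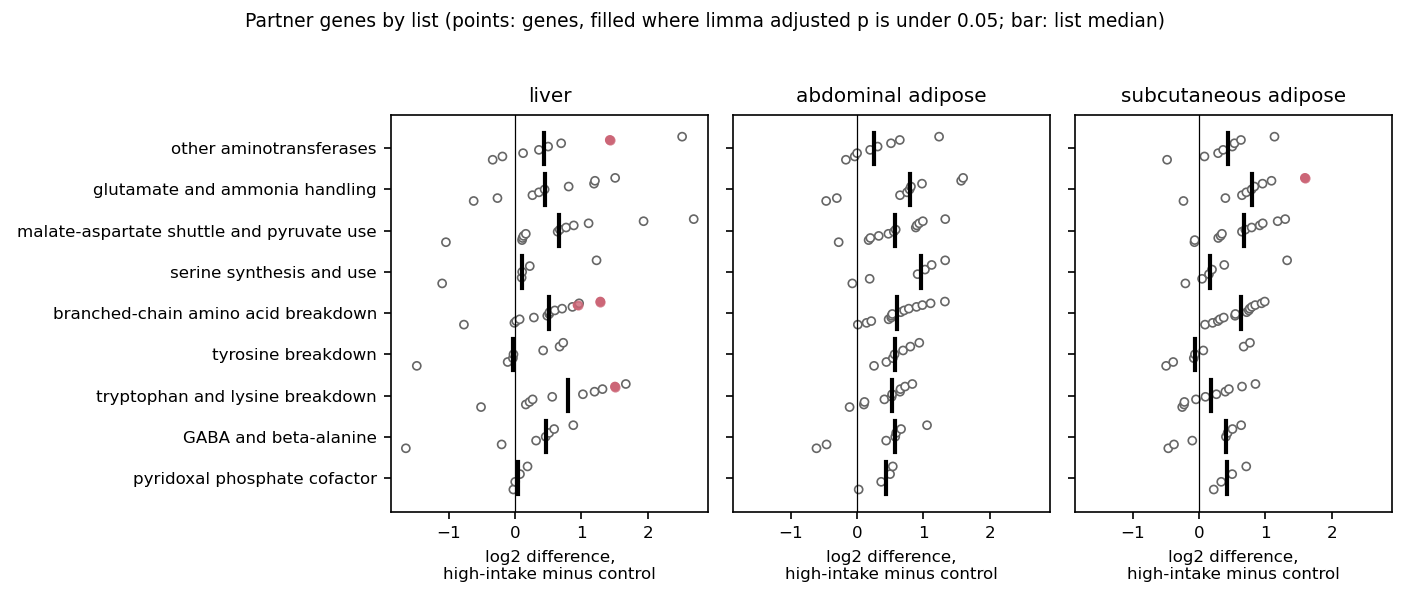
Log2 difference between high-intake and control geese for each gene of the 9 partner lists in the 3 tissues, with filled points for an adjusted p under 0.05 (limma) and a bar at the median of each list. In liver AGXT, IVD, HIBADH and AASS are filled, all to the right of 0, in abdominal adipose none is filled, and in subcutaneous adipose only ASL is.

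In AA 0 of the 77 partner genes tested passed (limma), with 31 under an unadjusted p of 0.05 beside 20.3% of all genes, 67 were positive beside 63.2% of all genes, and the median was 0.55. The largest difference was that of ASNS, asparagine synthetase, at 3.40, 2.06 and 2.85 FPKM in controls and 10.6, 11.5 and 9.01 FPKM in high-intake geese (1.60, adjusted p = 0.0612). In SA, where 1.18% of all genes rose, 1 of the 77 passed, ASL, at 9.18, 1.12 and 4.73 FPKM in controls and 16.1, 22.7 and 7.44 FPKM in high-intake geese (1.60, SE 0.46, adjusted p = 0.0278), although T3-SA lay below C1-SA and the call held in only 1 of the 6 fits that left out a library, that without C1-SA (0.98 and adjusted p = 0.452 without C2-SA). At an unadjusted p under 0.05 there were 11 of the 77 for feeding in SA, beside 12.8% of all genes. The liver response exceeded that of SA for 2 of the partner genes, ETNPPL and ACMSD, where 0.902% of all genes did so, and 0 of 77 passed for liver minus AA (limma). Under an unadjusted p of 0.05 were 17 of the 77 for liver minus AA, beside 14.0% of all genes, and 10 for liver minus SA, beside 11.0%. ACMSD, which diverts tryptophan breakdown from NAD synthesis, was at 0.67, 1.03 and 0.82 FPKM in control livers and at 1.47, 3.54 and 3.60 FPKM in high-intake livers, and at 0.01 to 0.31 FPKM throughout SA (difference 1.25, SE 0.27, adjusted p = 0.0126). Without goose C2 that call was lost as well (adjusted p = 0.246).

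The genes with a pattern most like that of GPT2 were sought among 8815 genes with a mean above 1 FPKM, by Pearson's r of log2(FPKM + 1) over the 18 libraries. These points share geese, tissues and feeding groups, so r is a description. FADS1, a fatty acid desaturase, was closest at 0.983, with means of 38.9 FPKM in control and 381 in high-intake liver and 2.50 to 5.59 in adipose groups. GLDC, the glycine-cleaving decarboxylase, followed at 0.963 with 1.94 and 15.2 FPKM in liver, and then TM6SF2 at 0.959 and ABAT and SIGIRR at 0.957. ABAT thus ranked 4 among the 8815 genes. Of the other members, PSAT1 was at 0.926, TAT at 0.890, AGXT2 at 0.863, GOT2 at 0.811, GOT1 at 0.775, AADAT at 0.022 and BCAT1 at -0.536. Over the 6 livers alone the closest genes were G3BP2, HDDC2, NUS1, DCTN5 and COPA at 0.991 to 0.997, and GOT1 at 0.930 was the closest member.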

How the data were processed

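RNA from 3 tissues of 6 geese was sequenced paired-end after removal of ribosomal RNA, and the authors mapped reads with TopHat2 and estimated FPKM per library with Cufflinks 2.1.1. The deposited tables hold log2 values, read as log2(FPKM + 1) from their range and converted back to FPKM. Positions are those of the deposited annotation of the A. cygnoides assembly. Groups followed the sample labels. No column of comparisons was used, and depth per library is unknown.

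A gene entered a test where its FPKM averaged above 0.1 in the libraries compared, which held for all 9 members throughout. The test ran on log2(FPKM + 1) with limma 3.58.1 (R 4.3.3, moderated variance with a trend, two-sided) and Benjamini-Hochberg adjustment over all genes at 0.05. Fold ratios are ratios of group mean FPKM. The test was also run on simulated data, whose outcome is not given here, so that run adds no support to the calls. With 3 against 3, an exact permutation test cannot go below p = 0.1. Tissue comparisons followed the study in using no goose term, and the difference of responses took the goose as a block. The 3 tissues of a number come from one goose. Libraries of the same goose deviated together from their group means (mean r 0.17 for liver and AA, 0.09 for liver and SA, 0.44 for AA and SA). Control and high-intake libraries of one number come from different geese, and their mean r was -0.06 in liver, 0.07 in AA and 0.17 in SA. An r as large as that of liver and AA thus also occurred between different animals in SA. Members, gene lists, rule for names (all members, at most 6 partner genes past the threshold per comparison by size of change, otherwise the largest of a list, and the 5 most like GPT2) and alternatives were chosen with earlier results of these data known. The alternatives were a pseudocount of 0.1, no filter, median centring, no variance trend, blocking by number, and leaving out each library or goose. 1 gene of the lists is not reported here.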

Additional observations from a re-analysis of the deposited data

Results flagged for a closer look

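For 2 genes outside the members, the feeding response differed between liver and subcutaneous adipose tissue by the test of that difference. ETNPPL, which degrades phosphoethanolamine, had a response larger in liver by 3.00 on the log2(FPKM + 1) scale. ACMSD, of tryptophan breakdown, had one larger in liver by 1.25. Both calls were lost without goose C2 and with no replicate block for the goose (adjusted p = 0.157 and 0.119), and that of ETNPPL also without goose T3. The fit of liver minus SA drew the spread of each gene strongly to that of genes of like level (prior degrees of freedom 25.3, against 3.47 for liver minus AA). Over AA the differences of ETNPPL and ACMSD were 2.69 and 1.14 and did not pass (limma, adjusted p = 0.112 and 0.176).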

How the results depend on the processing

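Of 1320 recomputed values for single genes, 1207 kept their direction and their side of the threshold, 69 lost the threshold, 18 passed it only under the alternative, 6 values without a test moved and 20 changed direction. Leaving out 1 library gave 0 to 2 members past the threshold for feeding in liver and 0 to 1 in SA (GPT2, without C1-SA or T2-SA), and 0 in AA. The settings that kept all libraries gave 0 in each tissue. Median centring raised the count between control liver and control SA from 4 to 7, and lowered the feeding differences by 0.035 in liver, 0.133 in AA and 0.297 in SA. It turned AADAT to -0.041 for feeding in SA, to 0.22 between control liver and AA, and to 0.44 and 0.45 between high-intake liver and AA or SA, and TAT to 0.089 for the response of liver minus AA. With a pseudocount of 0.1, AGXT2 turned to 0.17 for that response. Over fits without 1 library, signs changed for feeding in liver in BCAT1 (-0.20 to 0.60), in AA in AGXT2 (-0.079 to 0.96), in SA in TAT (-0.51 to 0.36), AGXT2 (-0.26 to 0.24) and HIBADH (-0.051 to 0.61), and between high-intake liver and SA in AADAT (-0.23 to 0.042). Over fits without 1 goose they changed for liver minus AA in PSAT1 (-0.26 to 1.00), TAT (-0.38 to 0.36) and AGXT2 (-0.54 to 0.25), and for liver minus SA in GOT1 (-0.037 to 1.14). The causes were not tested. Since depth is unknown, no counting error can be given. Control and high-intake geese of one number are different animals. Blocking feeding comparisons by number left 0 members past the threshold in each tissue, and of all genes it left 1 of 257 in liver, 0 of 11 in AA and 230 of 283 in SA. Without C2-SA, 4 genes in all passed for feeding in SA, and without the variance trend, 1. Blocking by goose between tissues took GOT2 from the calls of control liver and AA and added GOT1 in high-intake geese.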

Other observations

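No lncRNA locus of the deposited lncRNA table (1701 loci) lay within 10 kb of any of the 9 aminotransferase genes. GPT2, GOT1, GOT2, AGXT2 and ABAT were all highest in T1-L among the livers, TAT and PSAT1 in T3-L, and BCAT1 and AADAT in T2-L. Among the SA libraries C2-SA was the lowest for 7 of the 9 members, and the other 2, TAT and AGXT2, were lowest in T2-SA.

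PHGDH and PSPH, which stand before and after PSAT1 on the route to serine, had another pattern in liver. PHGDH was at 186.9, 210.2 and 278.1 FPKM in control livers and at 146.6, 84.5 and 87.6 FPKM in high-intake livers (log2 difference -1.10, limma adjusted p = 0.0825), while PSPH was at 1425, 1748 and 753 against 1474, 992 and 1571 FPKM. Both genes were singled out after their values were seen.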
